A study of Homo sapiens with 5 samples.

Results

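Cholesterol and fatty acids are built in the cell from acetyl-CoA by a fixed series of enzymes, and 34 genes of these routes were followed in KGN cells, an established line grown from a human granulosa cell tumour. The genes were taken by name from a list, as enzymes from acetyl-CoA to cholesterol and to long unsaturated fatty acids together with the SREBP factors that control them. All 34 were found among 35453 gene names in the count table, and all 34 passed the minimum of a mean of 20 scaled counts over the libraries, as did 14588 gene names in all. They comprise 7 genes of the mevalonate pathway, 11 of squalene and the sterol steps, 5 SREBP factors and regulators, 4 of fatty acid synthesis, 5 of fatty acid elongation and desaturation and 2 acyl-CoA synthetases.

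Poly(A) RNA was sequenced after 24 h in DMEM/F12 stripped with charcoal, to which 100 nmol/L androstenedione had been added in every group, the control included. The 5 groups were the control and 4 treatments: FSH (100 ng/mL), FSK (forskolin), SC79 (4 µg/mL) and PMA (a phorbol ester). FSH acts on a receptor that raises cAMP, forskolin activates adenylyl cyclase directly, SC79 is sold as an activator of the kinase AKT, and PMA activates protein kinase C. The amounts of FSK and PMA were 10 and 0.1, for which the treatment labels have mmol/L and the written protocol a sign that stands for µmol/L. The control is untreated by its title and received ethanol by the protocol. Each group is 1 library made from 270 ng of RNA, pooled as 90 ng from each of 3 cultures, so no spread between cultures can be measured and no p-value was computed. Every bracketed range is an exact 95% interval of the ratio between a pair of libraries and covers counting error only. All 4 treatments are set against the same control library, so their ratios are not independent of each other.

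Acetyl-CoA is turned into mevalonate, then into isoprenoid units, squalene, lanosterol and, after demethylation and rearrangement, cholesterol. SREBP factors are made as membrane proteins of the endoplasmic reticulum, where INSIG proteins hold them back together with their escort SCAP while sterols are plentiful. When sterols run low, the complex moves to the Golgi, the factor is cut free, and it binds sterol regulatory elements, usually beside CCAAT boxes bound by NF-Y or GC boxes bound by Sp factors. Granulosa cells use cholesterol as the raw material of progesterone, which they obtain by uptake of lipoproteins as well as by synthesis.

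The promoters show how these control elements are laid out, and 5 are printed because they belong to genes on which the results turn: TM7SF2 and ELOVL5, which lay above control with FSK and below it with PMA, LSS and INSIG1, which were lower in both, and SREBF2, whose promoter holds a sterol regulatory element. Each line gives the 250 bases before the RefSeq transcription start on GRCh38.p14, 5′ to 3′ on the strand of the gene. Capitals mark matches, on either strand, to the sterol regulatory element TCACNCCAC, to the CCAAT box (ATTGG where it lies on the other strand) and to the full cAMP response element TGACGTCA. The windows lie at chr11:65111622-65111871 (plus strand) for TM7SF2, chr21:46228775-46229024 (minus) for LSS, chr7:155297628-155297877 (plus) for INSIG1, chr6:53348951-53349200 (minus) for ELOVL5 and chr22:41832855-41833104 (plus) for SREBF2.
TM7SF2: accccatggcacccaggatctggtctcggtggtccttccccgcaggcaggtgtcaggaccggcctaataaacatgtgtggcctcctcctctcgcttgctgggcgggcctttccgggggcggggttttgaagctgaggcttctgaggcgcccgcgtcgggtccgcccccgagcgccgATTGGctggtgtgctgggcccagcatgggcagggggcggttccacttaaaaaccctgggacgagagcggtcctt
LSS: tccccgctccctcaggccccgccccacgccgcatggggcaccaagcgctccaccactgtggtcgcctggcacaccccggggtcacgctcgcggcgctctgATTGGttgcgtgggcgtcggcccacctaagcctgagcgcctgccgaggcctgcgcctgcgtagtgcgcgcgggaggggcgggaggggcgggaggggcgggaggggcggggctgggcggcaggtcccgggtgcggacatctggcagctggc
INSIG1: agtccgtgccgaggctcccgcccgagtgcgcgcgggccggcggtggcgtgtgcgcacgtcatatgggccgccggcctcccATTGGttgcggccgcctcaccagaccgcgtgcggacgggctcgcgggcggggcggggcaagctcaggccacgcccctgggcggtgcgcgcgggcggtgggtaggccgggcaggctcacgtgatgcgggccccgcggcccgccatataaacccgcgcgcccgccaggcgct
ELOVL5: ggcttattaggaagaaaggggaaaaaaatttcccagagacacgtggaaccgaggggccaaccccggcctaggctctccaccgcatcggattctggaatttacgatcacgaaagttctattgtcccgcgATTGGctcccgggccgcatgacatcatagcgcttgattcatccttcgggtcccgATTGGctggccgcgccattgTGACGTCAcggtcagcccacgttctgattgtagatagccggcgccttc
SREBF2: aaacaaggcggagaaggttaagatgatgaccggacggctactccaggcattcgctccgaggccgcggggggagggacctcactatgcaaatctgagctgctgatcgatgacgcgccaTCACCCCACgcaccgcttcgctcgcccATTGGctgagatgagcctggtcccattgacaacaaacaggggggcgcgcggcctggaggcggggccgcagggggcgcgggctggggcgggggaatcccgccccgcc
TM7SF2, LSS and INSIG1 each hold 1 CCAAT box on the minus strand of the gene, starting 74, 150 and 170 bases before the start. SREBF2 holds the sterol regulatory element 133 bases before the start, with a CCAAT box at 106 bases. ELOVL5 holds CCAAT boxes at 122 and 68 bases and the full cAMP response element at 48 bases.

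RefSeq promoter windows of 300 bases, from 250 before to 50 after the start, were given for 30 of the 34 genes. The CCAAT box was found in 23 of those 30 (76.7%), against 39.7% of all 27305 genes with a window. The GC box, searched as GGGCGG, was found in 28 (93.3%), against 48.3% of all genes. The sterol regulatory element in this strict form was found in 2 (6.67%), SREBF2 and the fatty acid activator ACSL1, against 1.39%. The ACSL1 match lay in a window starting at 184805504 on chromosome 4, inside the gene, whose 5′ end is at 184826818. The ACSL1 window nearest that end held none. The full cAMP response element was found in 2 (6.67%), ELOVL5 and FADS1, against 2.25%, and its shorter form TGACG, which every full element contains, in 16 (53.3%), against 28.4%. A gene was counted if any of its windows matched. The 30 genes had 45 windows and all 27305 genes had 35116, so the 30 had more windows per gene, which raises their shares. A match says only that these letters are present, and occupancy was not measured.

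**Figure D1:**
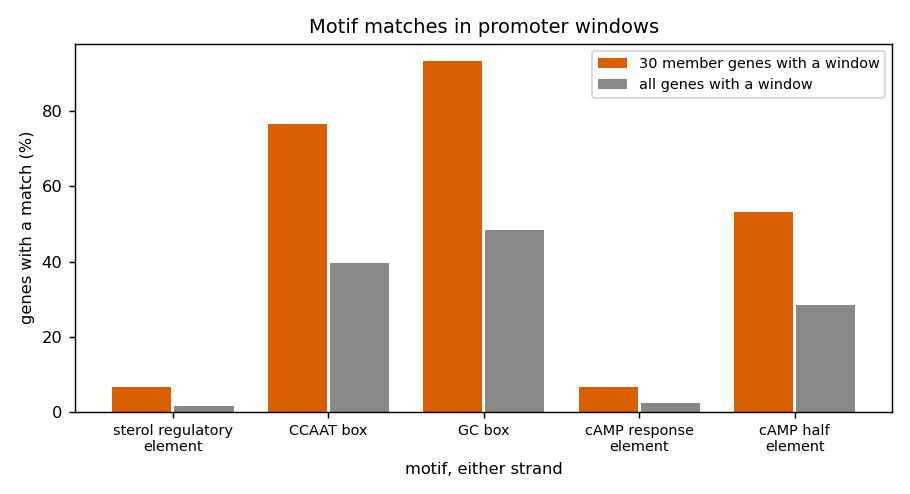
Share of genes (%) with at least 1 match to each motif, on either strand, in the RefSeq promoter windows of the 30 genes that have one (orange) and of all 27305 genes with a window (grey). CCAAT boxes were found in 76.7% of the 30 genes and 39.7% of all genes, and GC boxes in 93.3% and 48.3%.

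The libraries held 50253128 to 58849719 estimated counts each. Granulosa markers were present, 6 of 6 above the minimum, with summed levels of 4167 scaled counts in control, 8208 with FSH, 39411 with FSK, 4968 with SC79 and 8995 with PMA. The members did not go one way: STAR had 1012 in control and 5383 with PMA, while FSHR was at 0.401-fold [0.263 to 0.581] and AMHR2 at 0.170-fold [0.0889 to 0.274] of control with PMA, and KITLG at 0.302-fold [0.274 to 0.330] with FSK. Of the other cell types that could be mistaken for this one, the T cell gene CD3E was at 0 in all 5 libraries, and CYP17A1, CDH5, DDX4, ADIPOQ, PLIN1 and ALB were under the minimum. PTPRC, CD68, PECAM1, ZP3 and APOA1 passed it. With PMA, CD68 was at 2178 scaled counts against 791 in control, PECAM1 at 648 against 108 and APOA1 at 239 against 26.6, while PTPRC was at 37.6 in both. The part of these markers in the PMA results was not tested. The matrix and stromal markers DCN, LUM and COL1A1 also passed, and their list summed to 768442 in control, 709399 with FSH, 515498 with FSK, 768389 with SC79 and 277026 with PMA. Nearly all of that sum is COL1A1, at 768295 in control, and DCN was instead above control, at 1.66-fold [1.29 to 2.17] with FSK and 1.40-fold [1.08 to 1.84] with PMA. A list of 6 cell division genes (MKI67, TOP2A, CDK1, CCNB1, AURKB, PLK1) summed to 44315 scaled counts in control, 35786 with FSH, 7042 with FSK, 39607 with SC79 and 17503 with PMA. In RNA from whole cultures, fewer cells of a kind and less RNA per cell cannot be told apart.

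Per transcript length, the desaturase SCD and ACLY, which makes cytosolic acetyl-CoA from citrate, were the most abundant of the 34 genes in control, at 198 and 197 TPM, a share of all transcripts scaled to a fixed total. FDFT1 (squalene synthase) followed at 145, FDPS (farnesyl diphosphate synthase) at 134, ELOVL5 and FADS2 both at 128 and FASN at 110 TPM. The least abundant were MVK at 15.3, TM7SF2 at 14.6 and HSD17B7 at 9.76 TPM. The 34 genes summed to 2066 TPM in control. TM7SF2 reached 36.8 TPM with FSK, and SCD went from 222 TPM with SC79 to 140 with PMA.

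**Figure D2:**
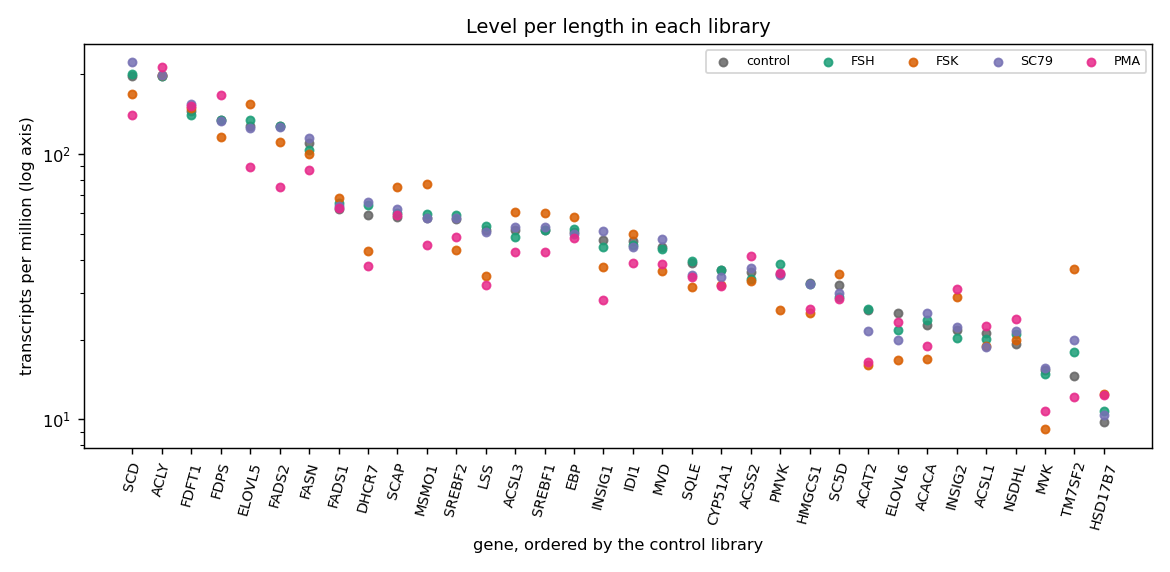
Level per transcript length, in TPM on a log axis, of each of the 34 genes in the 5 libraries (1 point per library), ordered by the control library. SCD and ACLY lie at the top with 198 and 197 in control, HSD17B7 at the bottom with 9.76, and the FSK point of TM7SF2 stands at 36.8 against 14.6 in control.

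The spread over the 5 libraries can be read from the ratio of extremes. The highest library over the lowest had a median of 1.40 for the 34 genes and 1.40 for all 14588 genes, and it reached 1.5 in 10 of 34 (29.4%) and in 41.2% of all genes. PMA was the lowest library for 19 of the 34 genes, and FSK was the highest for 14 and the lowest for 9. Such counts were not made over all genes, so they are not a result about the list. Over all genes the quartiles of the log2 ratio to control were -0.26 to 0.27 with FSK and -0.26 to 0.24 with PMA. They were -0.08 to 0.07 with FSH and -0.10 to 0.10 with SC79, so FSK and PMA differed most from control in general. Together the 34 genes took 0.272% of named counts in control, 0.277% with FSH, 0.258% with FSK, 0.283% with SC79 and 0.230% with PMA.

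The mevalonate pathway opens with ACAT2, the cytosolic thiolase that joins acetyl-CoA units. ACAT2 (ENSG00000120437, chromosome 6, 159760328 to 159779055, GENCODE release 29 on GRCh38) had 1283 scaled counts in control, 1254 with FSH, 797 with FSK, 1137 with SC79 and 799 with PMA. The FSK and PMA libraries were the lowest and lay together, at 0.622-fold [0.568 to 0.679] and 0.623-fold [0.570 to 0.680] of control. Only 49.7% of the 31-base words in ACAT2 transcripts are its own. It shares 25.2% with SOD2, a mitochondrial superoxide dismutase that had 5306 scaled counts in control, 8100 with FSK and 14000 with PMA, so the split of reads between them is uncertain. MVK, the kinase that adds the first phosphate to mevalonate (ENSG00000110921, chromosome 12, 109573255 to 109598117), had 612 in control, 617 with FSH, 391 with FSK, 689 with SC79 and 444 with PMA. Its FSK library was at 0.639-fold [0.561 to 0.726] and its PMA library at 0.726-fold [0.642 to 0.819] of control, while SC79 was the highest of the 5. PMVK, which adds the next phosphate, had 995, 1086, 737, 996 and 960 scaled counts in the same order of libraries, with FSK alone well under the others. HMGCS1, which makes HMG-CoA, ranged from 1632 with PMA to 2262 with FSH, and MVD, which yields isopentenyl diphosphate, from 1176 with FSK to 1542 with SC79.

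The last enzymes of that pathway departed from its start in part, IDI1 with FSK and FDPS with PMA. IDI1 with PMA, at 0.809-fold [0.759 to 0.862], and FDPS with FSK, at 0.888-fold [0.846 to 0.933], were below control like the earlier enzymes. IDI1, the isomerase of isopentenyl diphosphate, had 2081 scaled counts in control, 2088 with FSH, 2277 with FSK, 1987 with SC79 and 1684 with PMA. FDPS, which builds farnesyl diphosphate, had 3420, 3518, 3038, 3465 and 4069 in the same order. FDPS was thus the gene of this group that was highest with PMA, at 1.19-fold [1.14 to 1.24] of control, and IDI1 the one that was highest with FSK, at 1.09-fold [1.03 to 1.16]. FDPS transcripts are 76.7% made of their own words, the largest overlap being 14.3% with RUSC1-AS1, which is not among the genes counted. Against counted genes alone the share is 89.1%.

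Among the sterol steps, TM7SF2 had the widest range of the 34 genes. It encodes a sterol reductase that acts after lanosterol (ENSG00000149809, chromosome 11, 65111845 to 65116384), and its transcript words are 100% its own. TM7SF2 had 494 scaled counts in control, 622 with FSH, 1255 with FSK, 643 with SC79 and 395 with PMA. The FSK library stood far above the rest, FSH and SC79 lay moderately above control and PMA below it. These levels correspond to 2.54-fold [2.29 to 2.82] with FSK, 1.26-fold [1.12 to 1.42] with FSH, 1.30-fold [1.16 to 1.46] with SC79 and 0.800-fold [0.701 to 0.912] with PMA. LBR, the other enzyme with this reductase activity, is not among the 34 genes and was named after its values were seen. It had 4078 scaled counts in control and 2246 with FSK, or 0.551-fold [0.523 to 0.580], the opposite direction from TM7SF2.

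Lanosterol synthase LSS (ENSG00000160285, chromosome 21, 46188141 to 46228824) closes the sterol rings. It had 4308 scaled counts in control, 4398 with FSH, 2860 with FSK, 4175 with SC79 and 2568 with PMA. The control, FSH and SC79 libraries lay close together, and FSK and PMA lay below them at 0.664-fold [0.633 to 0.696] and 0.596-fold [0.568 to 0.626]. DHCR7 (ENSG00000172893, chromosome 11, 71428193 to 71452868), the reductase of the last step to cholesterol, had 2935 in control, 3016 with FSH, 2269 with FSK, 3204 with SC79 and 1807 with PMA. Its order over libraries matched that of LSS in having PMA lowest and FSK next, with ratios of 0.616-fold [0.581 to 0.652] and 0.773-fold [0.732 to 0.817].

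Some, but not all, of the enzymes that act between LSS and DHCR7 were instead above control with FSK. MSMO1, the methyl sterol oxidase, had 2760 scaled counts in control, 2849 with FSH, 3723 with FSK, 2774 with SC79 and 2081 with PMA. That is 1.35-fold [1.28 to 1.42] with FSK and 0.754-fold [0.713 to 0.798] with PMA. SC5D, the sterol desaturase before DHCR7, had 1600, 1509, 1787, 1490 and 1359 in the same order, again with FSK highest and PMA lowest. The isomerase EBP ranged from 982 with PMA to 1389 with FSK, and the keto reductase HSD17B7 from 334 in control to 449 with FSK. HSD17B7 is 77.3% made of its own words and shares 19.1% with its copy HSD17B7P2. Its FSK value depends on the transcript counted. ENST00000485405.5, labelled processed_transcript, went from 166 in control to 239 with FSK, a log2 ratio of 0.52. The protein_coding ENST00000254521.7 went from 153 to 173, a log2 ratio of 0.17. NSDHL, the dehydrogenase of the same demethylation, had 743 in control, 811 with FSH, 788 with FSK, 831 with SC79 and 867 with PMA. Only the SC79 and PMA intervals excluded a ratio of 1 to control. Thus TM7SF2, MSMO1, HSD17B7, EBP and SC5D were above control with FSK by intervals that exclude 1, while CYP51A1 and DHCR7 were below it. This grouping of the steps after lanosterol was made after the values were seen. SC5D, at a log2 ratio of 0.16 with FSK, lay within the quartiles of all genes, -0.26 to 0.27.

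FDFT1, which commits farnesyl diphosphate to sterols, varied least in this group, from 5119 scaled counts with FSH to 5466 with FSK. SQLE, the epoxidase that follows, had 2438 in control, 2462 with FSH, 2006 with FSK, 2226 with SC79 and 2045 with PMA. CYP51A1, the lanosterol demethylase, ranged from 1916 with PMA to 2265 in control, but only 17.0% of its words are its own. It shares 78.7% with AC000120.2, which is not among the genes counted. Against counted genes alone 69.6% are its own, and its copy CYP51A1P2 had at most 3.00 scaled counts, with FSH. The transcript index is not given, so the level of CYP51A1 remains uncertain.

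**Figure D3:**
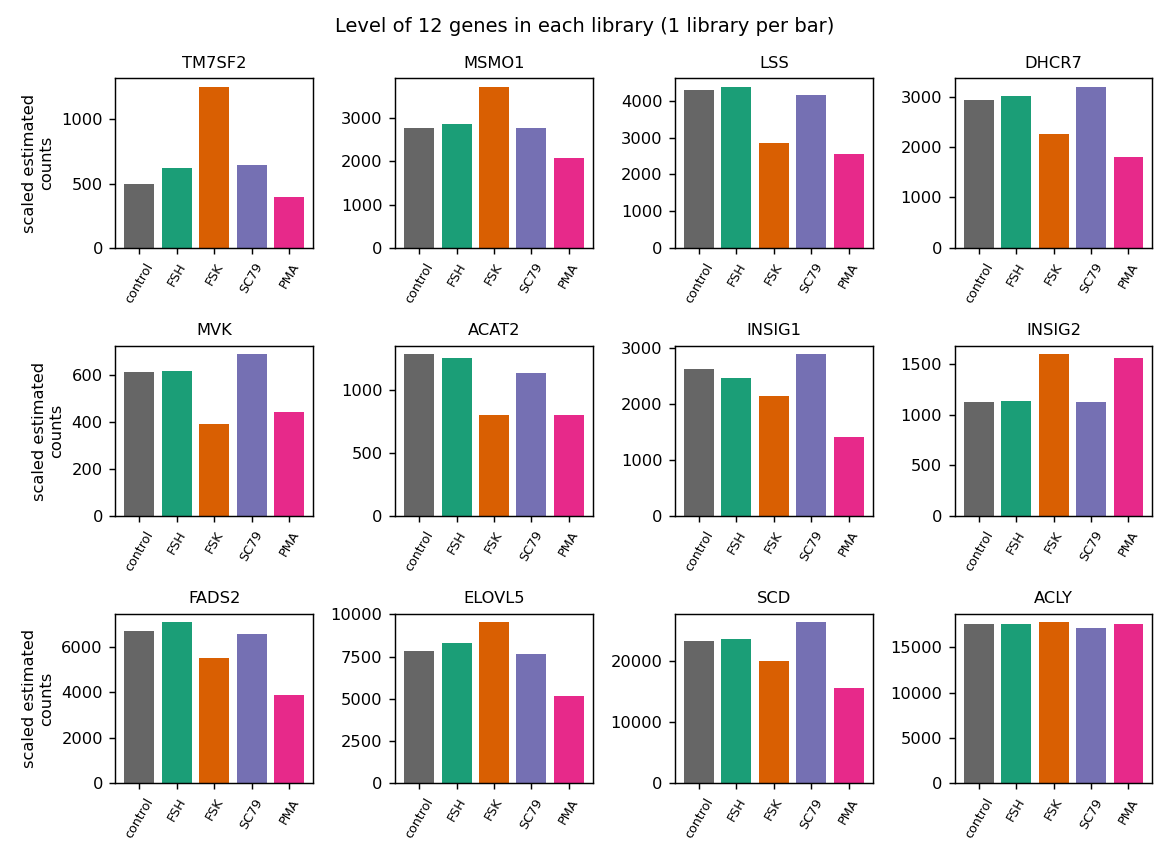
Scaled estimated counts of 12 of the 34 genes in each library (linear axes from 0, a separate axis for each gene, 1 library per bar, no error bars because no group has a second library). TM7SF2 and MSMO1 are highest with FSK, at 1255 and 3723, LSS, DHCR7, INSIG1, FADS2, ELOVL5 and SCD are lowest with PMA, and ACLY is level.

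The regulators differed in direction among themselves. INSIG1, which retains the SREBP complex and is itself an SREBP target (ENSG00000186480, chromosome 7, 155297776 to 155310235), had 2624 scaled counts in control, 2473 with FSH, 2138 with FSK, 2889 with SC79 and 1400 with PMA. PMA was far below the other 4 libraries, at 0.534-fold [0.50 to 0.569] of control, and SC79 was the highest. INSIG2, which has the same retention role (ENSG00000125629, chromosome 2, 118088452 to 118110997), had 1124, 1135, 1599, 1122 and 1561 in the same order. FSK and PMA were both above the other 3 libraries for INSIG2, at 1.42-fold [1.32 to 1.54] and 1.39-fold [1.29 to 1.5]. With PMA the INSIG genes therefore lay on opposite sides of control. Per length, INSIG1 stood at 47.6 TPM in control and 28.3 with PMA, and INSIG2 at 21.8 and 31 TPM.

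SCAP, the escort protein, had 4655 scaled counts in control, 4841 with FSH, 6132 with FSK, 5046 with SC79 and 4339 with PMA. SREBF2, the SREBP gene best known for cholesterol enzymes, had 6356, 6454, 4952, 6318 and 5155. SREBF1, the one best known for fatty acid enzymes, ranged from 2962 with PMA to 4369 with FSK. FSK was thus the highest library for SCAP and SREBF1 and the lowest for SREBF2, at 1.32-fold [1.27 to 1.37], 1.24-fold [1.19 to 1.30] and 0.779-fold [0.751 to 0.809] of control.

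In fatty acid synthesis, ACLY was nearly constant, with 17575 scaled counts in control, 17550 with FSH, 17792 with FSK, 17143 with SC79 and 17634 with PMA. ACACA, the acetyl-CoA carboxylase that makes malonyl-CoA, had 4785, 4830, 3555, 4769 and 3388 in the same order. ACACA was low with FSK and PMA, at 0.743-fold [0.711 to 0.776] and 0.708-fold [0.678 to 0.739]. FASN, which assembles palmitate, had 17042 in control, 16736 with FSH, 15857 with FSK, 18000 with SC79 and 13226 with PMA. ACSS2, which makes acetyl-CoA from acetate, had 1956, 1925, 1868, 1926 and 2058. PMA was the lowest library for FASN, at 0.776-fold [0.759 to 0.794], and the highest for ACSS2, where the interval of 0.990 to 1.12-fold includes 1.

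The 5 elongases and desaturases among the 34 genes were below control with PMA. Outside the 34, ELOVL1 was above it, at 1.30-fold [1.25 to 1.36], and FADS3 at 1.02-fold [0.979 to 1.07] and ELOVL4 at 1.12-fold [0.986 to 1.26] had intervals that include 1. FADS2, a desaturase of polyunsaturated fatty acids (ENSG00000134824, chromosome 11, 61792980 to 61867354), had 6700 scaled counts in control, 7094 with FSH, 5528 with FSK, 6559 with SC79 and 3874 with PMA. ELOVL5, which lengthens them (ENSG00000012660, chromosome 6, 53267398 to 53349179), had 7815, 8279, 9541, 7659 and 5191 in the same order. PMA was the lowest library for both, at 0.578-fold [0.556 to 0.601] for FADS2 and 0.664-fold [0.642 to 0.688] for ELOVL5, while FSK was the highest library for ELOVL5 but not for FADS2. SCD, which makes monounsaturated fatty acids, had 23351 in control, 23680 with FSH, 20009 with FSK, 26445 with SC79 and 15718 with PMA. ELOVL6, the elongase of palmitate, had 1821, 1678, 1406, 1504 and 1655, with control highest and FSK lowest. FADS1, the partner desaturase of FADS2, stayed within 4649 with PMA and 5394 with FSK.

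The acyl-CoA synthetases, which activate long-chain fatty acids for use, split. ACSL1 had 1729 scaled counts in control, 1644 with FSH, 1572 with FSK, 1542 with SC79 and 1737 with PMA. ACSL3 had 4547, 4315, 5124, 4341 and 3574 in the same order. FSK was the highest and PMA the lowest library for ACSL3, at 1.13-fold [1.08 to 1.17] and 0.786-fold [0.753 to 0.821], while ACSL1 with PMA, at 1.00-fold [0.941 to 1.07], had an interval that includes 1.

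**Figure D4:**
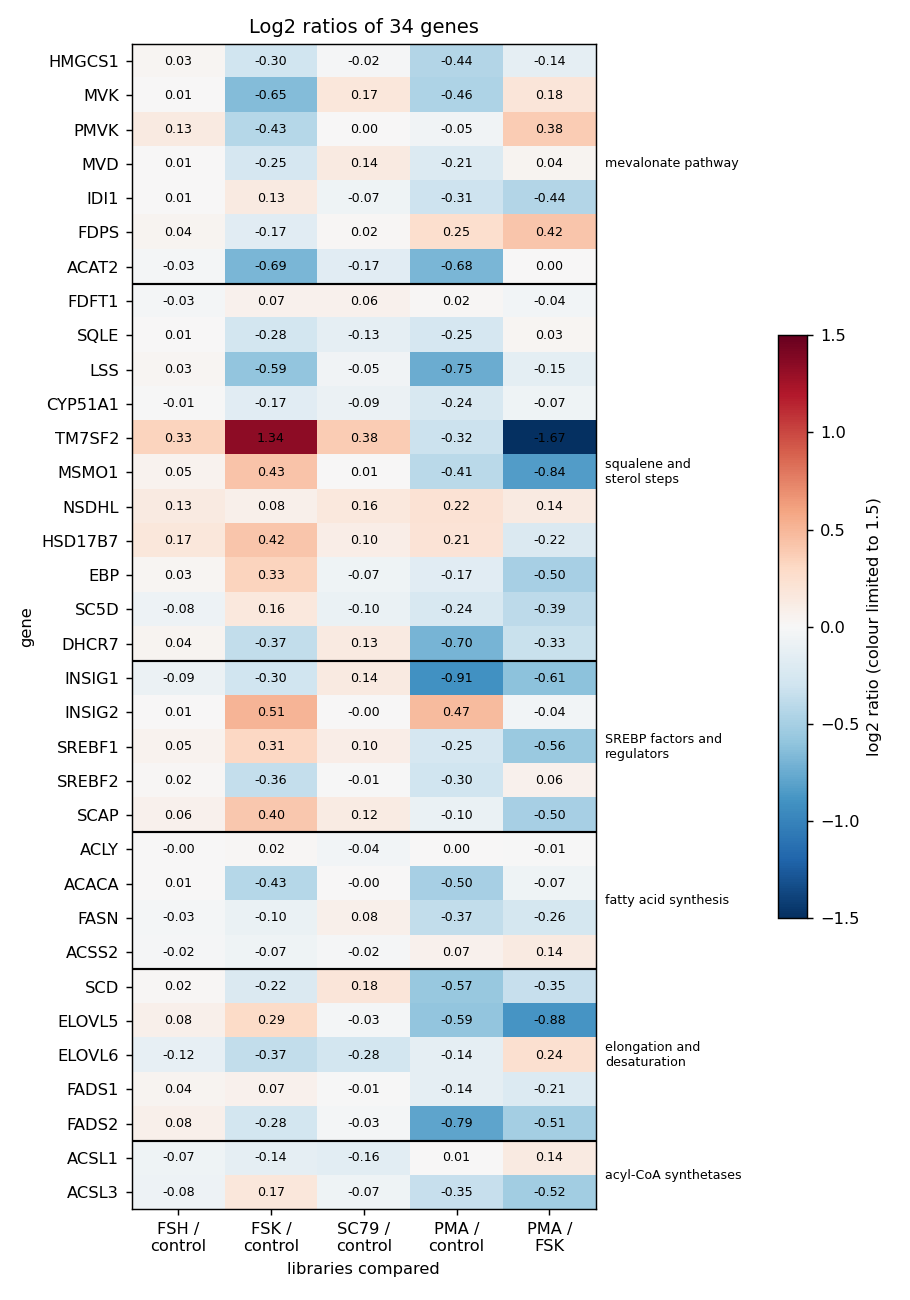
Log2 ratio of each of the 34 genes (rows, ordered by role) in the 5 comparisons (columns), with the value in each cell and the colour limited to 1.5 in either direction. The FSK column holds 1.34 for TM7SF2 beside -0.65 for MVK and -0.69 for ACAT2, and the PMA column holds 26 of 34 values below 0.

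The comparison of FSK with control asks how direct activation of cAMP synthesis relates to these routes. TM7SF2 was higher and ACAT2, MVK and LSS were lower by at least 1.5-fold, with log2 ratios of 1.34, -0.69, -0.65 and -0.59. So 1 of 34 genes (2.94%) was past that fold upward, where 10.3% of all tested genes were, and 3 of 34 (8.82%) downward, where 11.6% of all genes were. Both shares are near or under those of all genes. Apart from these, INSIG2 at 0.51, MSMO1 at 0.43, HSD17B7 at 0.42 and SCAP at 0.40 were the most above control, and PMVK and ACACA, both at -0.43, the most below. The mevalonate group had 6 of 7 genes below 0 and a median log2 ratio of -0.30, while the sterol steps had 7 of 11 above 0 and a median of 0.08. Medians were 0.31 for the regulators, -0.08 for fatty acid synthesis, -0.22 for elongation and desaturation and 0.02 for the synthetases. Over all 34 genes the median was -0.12, beside 0.01 over all genes, with 19 genes (55.9%) below 0, against 48.5% of all genes. Of the 34 intervals, 31 excluded a ratio of 1. The share of such intervals over all genes was not computed, here or in the comparisons that follow. They cover counting error only, and at the counts of these genes small differences exclude 1. Such a count is therefore not a result about the list. The 6 cell division genes had a median log2 ratio of -2.55 in the same comparison, and their part in these values was not tested.

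For PMA against control the question is what activation of protein kinase C goes with. INSIG1, FADS2, LSS, DHCR7, ACAT2 and ELOVL5 were lower by at least 1.5-fold, with log2 ratios of -0.91, -0.79, -0.75, -0.70, -0.68 and -0.59. These are 6 of 34 genes (17.6%), where 10.5% of all tested genes were past that fold downward, and 0 of 34 were past it upward, where 9.38% of all genes were. ELOVL5 lay just inside that fold at 0.664-fold and SCD just outside at 0.673-fold, and ELOVL5 was short of it in 3 of 6 alternatives, at -0.53 with library totals alone and at -0.58 with upper-quartile factors and with protein_coding transcripts only. Of the 34 genes 26 (76.5%) were below 0, against 50.5% of all genes, and the median log2 ratio was -0.25 beside -0.00 for all genes. Elongation and desaturation had 5 of 5 genes below 0 and a median of -0.57. The mevalonate group had 6 of 7 and a median of -0.31, the sterol steps 8 of 11 and -0.24, and the regulators 4 of 5 and -0.25. Fatty acid synthesis had 2 of 4 below 0 and a median of -0.18, and the synthetases a median of -0.17. The highest ratios were those of INSIG2 at 0.47, FDPS at 0.25, NSDHL at 0.22 and HSD17B7 at 0.21. In all 28 intervals, of counting error only, excluded 1, with no share over all genes computed. Cell division genes had a median of -1.38 here, and their part was not tested.

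**Figure D5:**
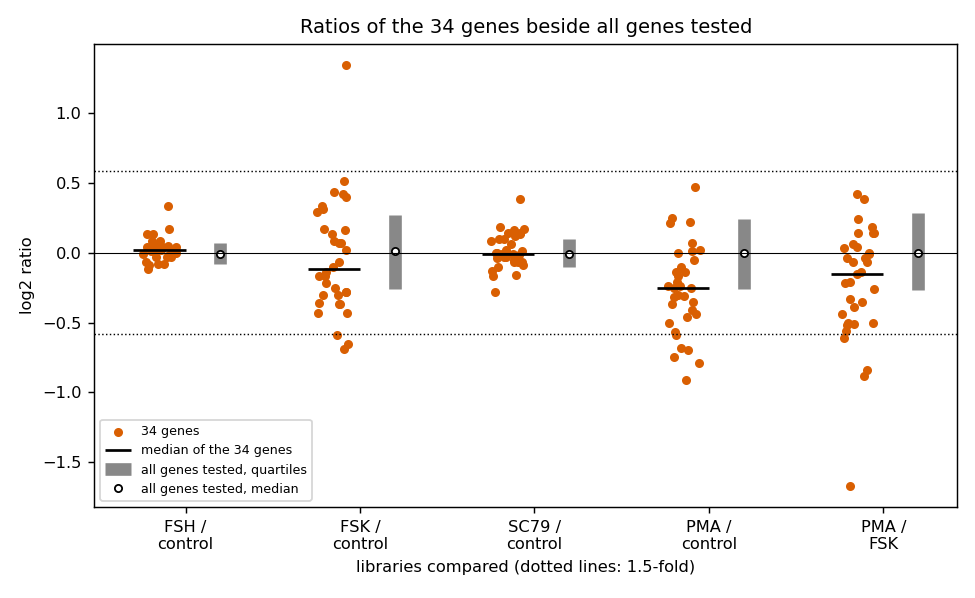
Log2 ratios of the 34 genes (points, spread sideways only for legibility) in each comparison with their median (black line), beside the quartiles (grey bar) and median (open circle) of all 14588 genes tested. Dotted lines mark 1.5-fold. The medians of the 34 genes were 0.02 with FSH, -0.12 with FSK, -0.01 with SC79, -0.25 with PMA and -0.15 for PMA against FSK.

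Set directly against FSK, PMA gave lower values for TM7SF2, ELOVL5, MSMO1 and INSIG1 by at least 1.5-fold. Their log2 ratios were -1.67, -0.88, -0.84 and -0.61, and TM7SF2 was at 0.315-fold [0.280 to 0.353]. These 4 of 34 genes (11.8%) stand beside 11.8% of all tested genes past that fold downward, and 0 of 34 were past it upward, where 12.8% of all genes were. SREBF1 at -0.56, ACSL3 at -0.52, FADS2 at -0.51 and SCAP and EBP, both at -0.50, came next. FDPS at 0.42 and PMVK at 0.38 were the most in favour of PMA, ACAT2 was at 0.00 [0.907 to 1.11-fold], and ACLY at -0.01. The medians were -0.15 over the 34 genes and -0.00 over all genes, with 23 of 34 (67.6%) below 0, against 50.3% of all genes. By group the medians were 0.04 for the mevalonate pathway, -0.22 for the sterol steps and -0.50 for the regulators. INSIG1 was at -0.53, short of 1.5-fold, when scaled by library totals alone.

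FSH, the hormone itself, was accompanied by small differences. None of the 34 genes was past 1.5-fold in either direction, where 2.15% of all tested genes were higher and 1.27% lower. TM7SF2 was the highest at a log2 ratio of 0.33, followed by HSD17B7 at 0.17 and PMVK and NSDHL, both at 0.13. ELOVL6 was the lowest at -0.12, followed by INSIG1 at -0.09. The median was 0.02 beside -0.01 for all genes, and 23 of 34 were above 0, where 6890 of all 14588 genes were. By counting error only, 7 intervals excluded a ratio of 1, with no share over all genes computed.

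SC79 against control gave a like picture of small ratios. Again 0 of 34 genes were past 1.5-fold, where 2.16% of all tested genes were higher and 1.56% lower. TM7SF2 was the highest at a log2 ratio of 0.38, then SCD at 0.18 [1.11 to 1.15-fold], MVK at 0.17, NSDHL at 0.16 and INSIG1 and MVD at 0.14. ELOVL6 was the lowest at -0.28 [0.771 to 0.885-fold], then ACAT2 at -0.17 and ACSL1 at -0.16. The median was -0.01, as over all genes. By counting error only, 19 intervals excluded 1, with no share over all genes computed. The TM7SF2 value depends on the transcript counted: its main transcript ENST00000279263.11 had 370 scaled counts in control, 472 with FSH, 943 with FSK, 404 with SC79 and 295 with PMA. For that transcript the SC79 log2 ratio was 0.13, and it held 74.9% of the gene's counts in control and 62.8% with SC79.

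A wider list of 48 gene names, not among the 34, held genes of the same routes and the SREBP partners SP1, NFYA, NFYB and NFYC. ERG28 was listed also under its older name C14orf1, which was not found. Of the names, 43 were above the minimum. With FSK 3 of 43 (6.98%) were higher and 7 (16.3%) lower by at least 1.5-fold, where 10.3% and 11.6% of all tested genes were, with a median log2 ratio of 0.00. With PMA 1 (2.33%) was higher and 5 (11.6%) lower, where 9.38% and 10.5% of all genes were, with a median of -0.11. FSH gave 0 higher and 1 lower (2.33%), beside 2.15% and 1.27%, with a median of -0.02. SC79 gave 0 in both directions, beside 2.16% and 1.56%, with a median of 0.01. PMA against FSK gave 4 higher and 4 lower (9.30% each), beside 12.8% and 11.8%, with a median of -0.09. ACSL4, a synthetase that prefers arachidonate, had 15588 scaled counts in the control and 39026 in the FSK library, or 2.50-fold [2.46 to 2.55]. NR1H3, the oxysterol receptor LXR alpha, had 252 in control, 334 with FSH, 551 with FSK, 357 with SC79 and 178 with PMA. The summed counts of TM7SF2 had the same order of libraries, with FSH and SC79 close together for both genes. The main TM7SF2 transcript did not, having 472 with FSH and 404 with SC79. ACSS1, the mitochondrial counterpart of ACSS2, was below control under every treatment, with 200 in control, 100.0 with FSH, 42.9 with FSK, 137 with SC79 and 49.5 with PMA. It is the gene counted as lower with FSH, at 0.502-fold [0.390 to 0.636]. The elongase ELOVL2 had 164 in control, 53.3 with FSK and 109 with PMA. ELOVL7, another elongase, was the gene counted as higher with PMA, with 28.5 in control, 25.1 with FSK and 55.4 with PMA. Among the 10 genes of SREBP processing and sterol sensing, 9 were above 0 with FSK, with a median of 0.28, and 5 with PMA, with a median of 0.01. Of all 14588 genes, 7505 were above 0 with FSK and 7223 with PMA.

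For 11 of the 34 genes at least 2 transcripts each held 20% or more of the gene's estimated counts in some library, and 23 had 1 such transcript. EBP differed in make-up with FSK. Its transcript ENST00000495186.5 held 30.3% [27.7 to 32.9%] of the gene in control and 45.2% [42.5 to 47.9%] with FSK, going from 334 to 627 scaled counts, while ENST00000276096.10 had a log2 ratio of -0.08. In SC5D the transcript ENST00000264027.8 held 56.5% in control, 60.6% with FSH, 70.7% with FSK, 67.7% with SC79 and 66.5% with PMA, so that shift was not one of FSK alone. The other SC5D transcript, ENST00000392789.2, had log2 ratios of -0.49 with FSK, -0.62 with SC79 and -0.60 with PMA. For HMGCS1, ENST00000325110.10 held 43.9% in control and 52.8% with FSK, so its ratio was -0.03 while that of ENST00000433297.2 was -0.54. In FADS2 the transcript ENST00000278840.8 held 21.9% in control and 13.2% with FSK, while the main transcript ENST00000257261.10 had a log2 ratio of -0.23. The largest shift in share was with PMA: ACACA ENST00000614428.4 held 74.4% in control and 59.1% with PMA. Its log2 ratio was -0.83, where the gene was at -0.50. Also with PMA, FDFT1 ENST00000525900.5 was at -0.67 and ENST00000220584.8 at -0.09. For HMGCS1, ENST00000433297.2 was at -0.65 with PMA and ENST00000325110.10 at -0.25. Reads are divided among overlapping transcripts by estimation, and these intervals do not include that error.

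The authors' deposited table gives a log2 fold change and an adjusted p-value for each of 428 transcripts of the 34 genes. With 1 library per group, these p-values cannot rest on a spread measured within a group. A p-value that is not low is therefore no evidence that a transcript did not differ. At an adjusted p below 0.05 the authors' deposited table lists 12 of 428 with FSH, 15 under FSK, 12 under SC79 and 19 under PMA, where 1.80%, 2.20%, 1.84% and 2.17% of all 179973 transcripts are listed. Of the 34 transcripts with the most counts, 1 for each gene, 0 are listed in any of these comparisons in the authors' deposited table, and 0 have an unadjusted p below 0.05 there. The main transcript of TM7SF2 has a log2 fold change of 1.35 with FSK and that of INSIG1 -1.02 with PMA in the authors' deposited table, each with an adjusted p of 1.00. Transcripts that are listed were minor forms, such as MVK ENST00000447878.6 for FSH at -8.90 in the authors' deposited table, whose scaled counts were 57.2 in the control library and 3.39e-05 in the FSH library. Some ACACA transcripts are listed under 2 identifiers with identical values, such as ENST00000614482.4 and ENST00000631657.1, both at -7.34 for FSH. The numbers listed above therefore include doubles. The 179973 transcripts include those of genes under the minimum.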

How the data were processed

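RNA of 5 KGN libraries, 1 per group, was analysed from the authors' files. Trimmomatic, kallisto and edgeR were used upstream, per the submitters' processing notes. No version, genome build or transcript index is given in the sources used here. The authors deposited estimated counts per transcript, per the file headers. They also deposited a normalized signal, used here only as an alternative. The authors' deposited comparison table gives log2 fold changes and p-values per transcript, which were copied and not recomputed.

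The estimated counts of 179973 transcripts were summed per gene name and rounded, since the files are per transcript. The 303 transcripts without a gene name (0.0535 to 0.0680% of counts) were left out. TMM factors for the library sizes came from edgeR 4.0.16 under R 4.3.3. A scaled count is the count brought to the mean effective library size, and log2 ratios use a pseudocount of 1. Genes needed a mean of 20 scaled counts, and a difference was counted from 1.5-fold. Ratio intervals are exact (Clopper-Pearson, 95%). With 1 library per group no test was possible. TPM levels were computed from GENCODE release 29 lengths (89.6% of transcripts matched by identifier and version), and 31-base words from its transcripts. The ratio and scaling steps were tested on simulated data. Promoter windows are from RefSeq. Alternatives were DESeq2 1.42.0 size factors, library totals, upper-quartile factors, a pseudocount of 5, protein_coding transcripts, the authors' values, other minimums and 2-fold. Python 3.11.15, numpy 2.4.6, pandas 2.3.3, scipy 1.17.1 and matplotlib 3.10.9 were used. All sample columns were matched.

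The genes and lists were chosen with earlier results of these data known. Values in every library were written for genes at least 1.5-fold from control in any treatment and for the highest and lowest gene of each role group in each comparison, and the other pathway genes were named from 2-fold from control. ELOVL1, ELOVL4, ELOVL7, FADS3, LBR and MMAB were named after their values were seen.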

Additional observations from a re-analysis of the deposited data

How the results depend on the processing

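Of 145 counts and medians recomputed under the alternatives, 135 stayed close to the reported value. Those under the other minimums could not change, since all 34 genes pass them, and a pseudocount of 5 could hardly change any. Close means within 1.5 times for a count and, for a median, within the log2 distance from a gene's ratio to the bound of its interval, taken as the median over the genes (0.08, or 0.09 for PMA against FSK). With library totals alone the PMA against FSK median was -0.06 and the SC79 median 0.02, both within it. Counting only protein_coding transcripts gave 2 genes higher with FSK, EBP being added at 0.84. A threshold of 2-fold left 0 genes lower with FSK, 0 lower with PMA and 1 lower for PMA against FSK, where 5.78%, 4.39% and 5.77% of all genes were. The authors' normalized values, whose library totals are not equalised, shifted the median over all genes to -0.16 with FSH, -0.16 with FSK, -0.28 with SC79 and -0.24 with PMA. The medians of the 34 genes were then -0.14, -0.29, -0.28 and -0.49, and the counts of lower genes 5 with FSK and 12 with PMA. On those values 6.97% of all genes were higher and 16.9% lower with FSK, 5.64% and 19.3% with PMA, 1.39% and 2.37% with FSH and 0.940% and 5.57% with SC79. Relative to the median over all genes, the medians of the 34 genes were 0.02, -0.13, -0.00 and -0.25 under both scalings. A change of scaling shifts the ratios of all genes alike, so this sameness was fixed in advance and is no support. Of 14 pairs of a gene and a comparison counted as past 1.5-fold, 12 were past it in all 6 alternatives that recompute single genes. The exceptions were ELOVL5 with PMA (past it in 3 of 6, -0.83 to -0.53) and INSIG1 for PMA against FSK (-0.68 to -0.53). An alternative chosen after seeing the data left out ACAT2, CYP51A1, FDPS and HSD17B7, the genes with under 80% own words. It gave 2 lower genes with FSK and 5 with PMA, and medians of -0.08 with FSK, -0.28 with PMA and -0.18 for PMA against FSK. No paired analysis was possible because each group has 1 library, and for the same reason no replicate could be left out. Pooling the 3 cultures of a group leaves their spread unknown, which depth cannot mend.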

Other observations

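The authors' deposited table also compares LH with control, for which no library was used here. In the authors' deposited table the main transcripts of the 34 genes have a median log2 fold change of -0.18 for LH, with 21 of 34 below 0 and a range of -1.11 to 0.56. The lowest is TM7SF2 at -1.11, where the same table gives 1.35 for FSK and 0.33 for FSH, and INSIG1 is at 0.31. The authors' deposited table lists 13 of 428 transcripts of these genes for LH at an adjusted p below 0.05, against 2.74% of all transcripts, and 0 of the 34 main ones (0 also at an unadjusted p below 0.05).

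MMAB, a gene of vitamin B12 metabolism whose transcripts share 3.74% of the words of MVK, had 1035 scaled counts in control, 986 with FSH, 669 with FSK, 1109 with SC79 and 643 with PMA. As for MVK, SC79 was its highest library, and FSK and PMA were its lowest.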
